A study of Mus musculus with 7 samples.

Results

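The genes by which pancreatic beta cells take up, move, store and release zinc, copper and iron were compared between mice weaned early and mice still suckling. The set was defined by gene family and name and not by measured values, though with earlier results of these data known. It holds the SLC11, SLC30, SLC31, SLC39 and SLC40 transporter families, the metallothioneins and their regulator Mtf1, the ferritin chains, transferrin and its receptor, the iron regulatory proteins, and the copper chaperone and pumps. Of 19938 genes with a single-gene probe set, 41 belong to it. Of 42 symbols looked for, the iron transporter gene Slc11a1 was not analysed here.

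All 7 mice were on the ICR background, carried an insulin-Cre transgene and the Rosa26-LSL-YFP reporter, and were 25 days old. The 3 weaned mice had been weaned at day 18 and the 4 suckling mice had not. Because Cre is driven by the insulin promoter, the reporter marks every cell in which that promoter has been active, including earlier in the life of the cell. From each mouse 2000 to 6000 YFP-positive cells were sorted, and their RNA gave 1 Affymetrix array. The array names carry the code L13 for all weaned and L14 for all suckling mice, so what these codes stand for and weaning cannot be told apart.

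The arrays agreed closely, with correlations across genes from 0.984 to 0.988 between arrays of the same group and from 0.980 to 0.988 otherwise. Beta-cell markers gave signal on all arrays, with a mean of 14 markers of 9.57 to 9.72 log2 units. Markers of other endocrine cells gave signal too. The mean of 10 measured was 8.35 to 8.60 on the weaned and 8.25 to 8.55 on the suckling arrays. By group mean 5 of them were higher and 5 lower in weaned mice. Among them, the hormone genes Gcg and Sst had means of 11.95 and 11.80 in weaned and 12.13 and 12.01 in suckling mice. The RNA is therefore not read here as that of beta cells alone. Markers of acinar cells, which make digestive enzymes, varied most: the mean of 27 such markers was 3.83, 3.80 and 5.67 on weaned replicates 4, 5 and 12, against 7.23, 7.10, 4.08 and 4.75 on suckling replicates 2, 9, 11 and 12, and all 27 had the lower mean in weaned mice. Their summed linear intensity ran from 616 to 2125 on the weaned and from 895 to 6866 on the suckling arrays. In RNA of sorted cells, fewer cells of a type and less RNA per cell cannot be told apart. The mean of 8 duct markers was 5.36, 5.59 and 5.77 in weaned and 5.94, 6.05, 5.73 and 6.08 in suckling mice, with weaned replicates 4 and 5 below all suckling arrays. Of these markers 5 of 8 had a lower mean in weaned mice, and Muc1 and Tff2 had an unadjusted p under 0.05 by limma (-0.65 and -1.75). Of 12 stromal markers 9 had a lower mean in weaned mice, and Rgs5 and Col1a2 had an unadjusted p under 0.05 by limma (-0.54 and -0.29). The part of these cells in the differences of the members was not tested, apart from the acinar values given with the results.

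Of the weaned arrays, 1 had signal for Xist, 1 for the Y-linked genes Uty, Eif2s3y and Kdm5d, and weaned replicate 12 for neither, so that array matched neither sex by these genes. Each of the 4 suckling arrays had one or the other. Without weaned replicate 12, the members with an unadjusted p under 0.05 by limma were Slc39a8, Slc30a5 and Slc39a5, lower in weaned mice, and Slc30a1 and Slc39a6, higher. They were 12.2% of the members, where 7.66% of all genes passed in that fit. Their differences were then -0.77, -0.28, -0.34, 0.32 and 0.26. Those of Slc11a2, Slc31a1, Fth1 and Slc30a6 were -0.37, -0.28, -0.24 and 0.32, each with an unadjusted p above 0.05.

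Zinc has a particular place in the beta cell, because insulin is stored in the secretory granule as a crystal of insulin and zinc. ZnT proteins (SLC30 family) move zinc out of the cytosol, into organelles or out of the cell, and ZIP proteins (SLC39 family) move it into the cytosol. Metallothioneins bind zinc and copper in the cytosol, and the transcription factor MTF-1 switches on their genes when zinc rises. Iron enters through the transferrin receptor and the transporter DMT1, is stored in ferritin and leaves through ferroportin, and iron regulatory proteins adjust the mRNAs of these proteins to the iron supply.

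Across the 41 members the differences between weaned and suckling mice were small, and the one exception in size was Slc39a8, a ZIP transporter, which was 1.91-fold lower in mean in weaned mice. By limma, 0 members passed an adjusted p of 0.05, where 0.015% of all genes did, and the smallest adjusted p of a member was 0.343. The unadjusted p of 6 members, or 14.6%, was under 0.05, where the share over all genes was 7.58%. Of these, 5 were lower in weaned mice (12.2%, against 3.19% of all genes) and 1 was higher (2.44%, against 4.39%). With arrays scaled by quantiles or centred on their medians the split was 6 lower and 0 higher, again 14.6% of the members. In those fits 8.18% and 7.60% of all genes passed, and their shares by direction are not given. With the acinar marker mean as a covariate, Slc39a8, Slc30a5 and Slc11a2 were the 3 members with an unadjusted p under 0.05 by limma. They were 7.32% of the members, where 5.82% of all genes passed in that fit. Without suckling replicates 2 and 9 there were 4, these and Fth1, or 9.76%, where 5.46% of all genes passed.

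In 9 members, or 22.0%, every weaned array lay on one side of every suckling array, where 7.32% of all genes do so. The lower side held 6 of them (14.6%, against 3.43% of all genes) and the higher side 3 (7.32%, against 3.9%). With arrays scaled by quantiles or centred on their medians, Slc30a1 and Slc30a6, both of the higher side, overlapped. The shares over all genes after these scalings are not given, so the sides are not counted again. Of all 41 members 26 had a lower mean in weaned mice, or 63.4%, where 49.9% of all genes do, and 15 had a higher one, where 50.1% of all genes do. The median log2 difference of the members was -0.056, beside 0.00047 for all genes. These counts describe the list, and members of one family were not treated as replicates.

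**Figure D1:**
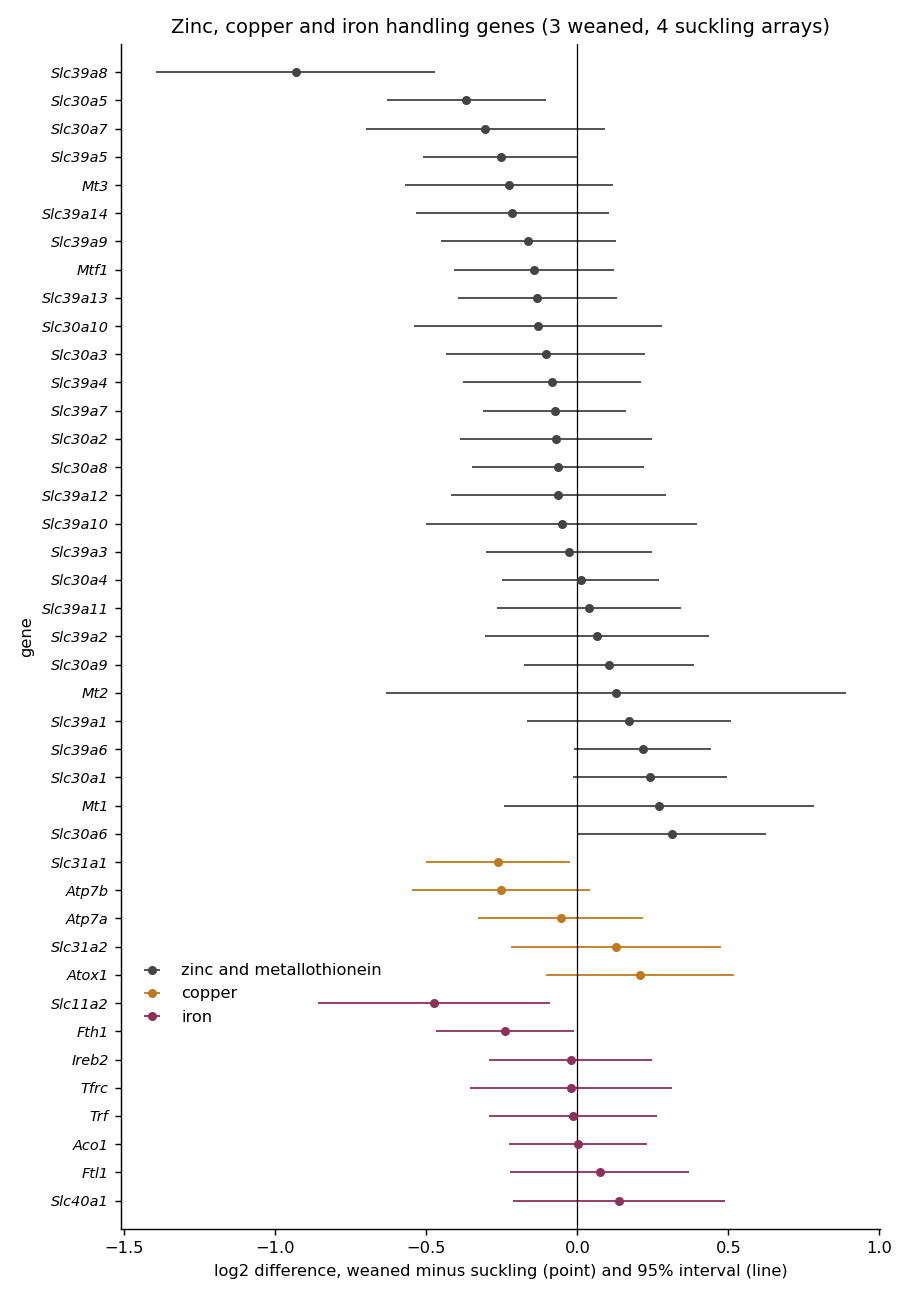
Log2 difference, weaned minus suckling, of each of the 41 members (points) with its 95% interval from limma (lines), for 3 weaned and 4 suckling arrays; colours mark zinc, copper and iron genes. Slc39a8 lies farthest from 0 at -0.93, and 16 members lie within 0.1 of 0.

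**Figure D2:**
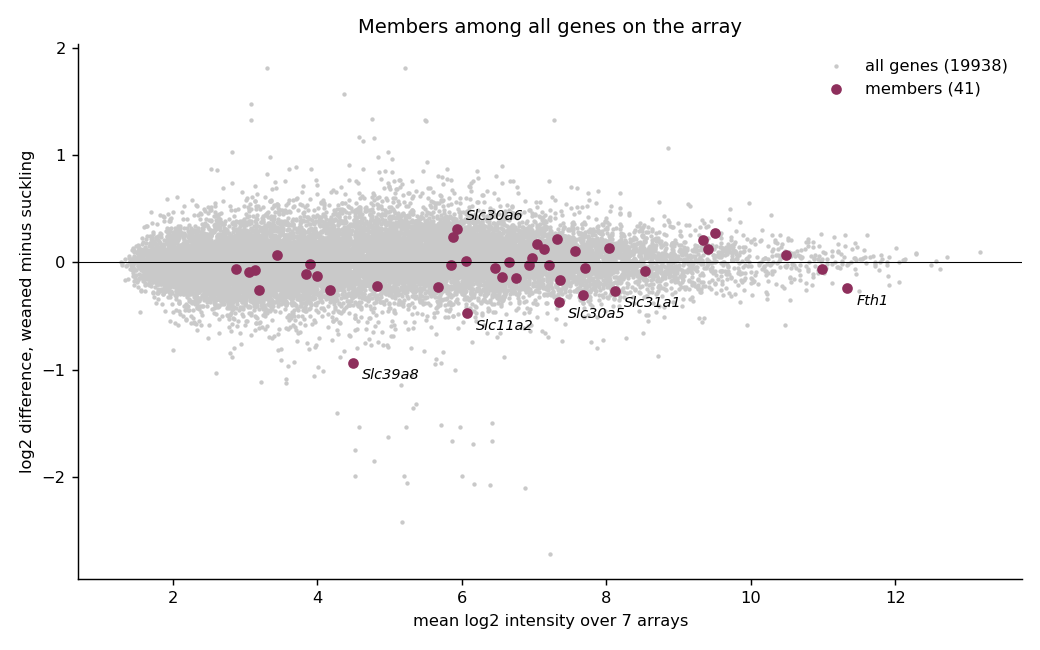
Log2 difference, weaned minus suckling, against the mean log2 intensity over 7 arrays for 19938 genes (grey) and the 41 members (purple). The 6 members with an unadjusted p under 0.05 are named, and their differences run from -0.93 for Slc39a8 to 0.31 for Slc30a6.

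Among the zinc importers, Slc39a8 stood out. It encodes ZIP8, which carries zinc, manganese and iron across the plasma membrane. Its log2 intensity was 4.13, 4.11 and 3.64 on weaned replicates 4, 5 and 12 and 4.49, 4.71, 5.26 and 5.10 on suckling replicates 2, 9, 11 and 12. All 3 weaned arrays were below all 4 suckling arrays, and weaned replicate 12 was the lowest. These levels are low. The means were 3.96 in weaned and 4.89 in suckling mice, where the range taken as background ended at 3.15. The difference was -0.93 (SE 0.21, 95% interval -1.40 to -0.47, adjusted p = 0.343, limma), and 74 genes on the array had a smaller p.

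Slc39a8 was low where acinar signal was high among the arrays of a group, though weaned replicates 4 and 5 were nearly equal in both. Suckling replicates 2 and 9, highest of all arrays in acinar signal, had the lower values of their group, and weaned replicate 12, highest of the weaned arrays, had the lowest of all, while between the groups both Slc39a8 and acinar signal had the lower mean in weaned mice. With the acinar marker mean as a covariate the Slc39a8 difference was -1.24 and the adjusted p 0.0464, and in that fit 4 genes in all passed by limma. Over 18 alternatives the adjusted p ran from 0.0464 to 0.902. Without suckling replicates 2 and 9 the difference was -1.23 (limma, adjusted p = 0.902).

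The leukocyte markers, listed because macrophages also express ZIP8, had no common direction. Of 21 measured, 7 were higher and 14 lower in mean, and the 3 with an unadjusted p under 0.05 by limma, Fcer1g, Tyrobp and C1qa, were higher by 0.48, 0.30 and 0.34. The list had means of 3.25 to 3.40 log2 units on the weaned and 3.34 to 3.47 on the suckling arrays. Their summed linear intensity was 419 to 490 on the weaned and 364 to 459 on the suckling arrays. C1qa, by far the brightest of the list with means of 8.08 in weaned and 7.74 in suckling mice, weighs most in this sum. The related C1qb and C1qc had means of 3.72 and 3.11 in weaned and 3.95 and 3.21 in suckling mice. Ptprc, which encodes the pan-leukocyte marker CD45, had means of 2.93 and 3.03, within the range of 1.80 to 3.15 that Xist and Y-linked genes show on arrays that lack their signal. With the leukocyte mean as a covariate the Slc39a8 difference was -0.97.

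**Figure D3:**
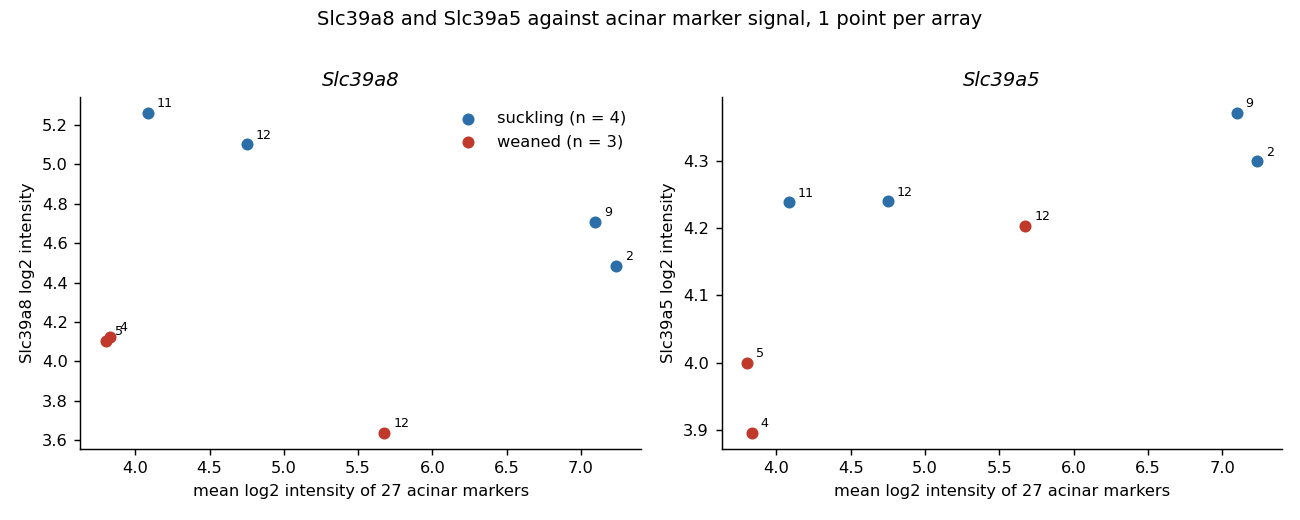
Log2 intensity of Slc39a8 (left) and Slc39a5 (right) against the mean log2 intensity of 27 acinar markers, 1 point per array, labelled with its replicate number, for 3 weaned (red) and 4 suckling (blue) mice. Slc39a8 is lowest on weaned replicate 12 at 3.64, where the acinar mean is 5.67, and Slc39a5 is highest on suckling replicates 9 and 2, where that mean is 7.10 and 7.23.

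Slc39a14 encodes ZIP14, the family member closest to ZIP8, which also carries iron and manganese. Its log2 intensity was 4.57, 4.99 and 4.57 on the weaned arrays, in the order of replicates 4, 5 and 12 kept from here on, and 5.13, 4.85, 4.86 and 4.85 on the suckling arrays, in the order 2, 9, 11 and 12. Weaned replicate 5 lay within the suckling range and the other weaned arrays below it. The difference was -0.22 (SE 0.14).

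Slc39a5, a ZIP of the basolateral membrane of epithelia, was also below the suckling arrays on every weaned array. It measured 3.90, 4.00 and 4.20 log2 units in weaned and 4.30, 4.37, 4.24 and 4.24 in suckling mice, a difference of -0.25 (SE 0.11). The gap between the nearest arrays was small, 4.20 against 4.24. Its higher values were those of suckling replicates 2 and 9, where acinar signal was highest, and with the acinar covariate the difference was -0.18. The weaned arrays were in the same order for Slc39a5 and for the mean of the duct markers, but the suckling arrays were not. Suckling replicate 12 had the highest duct mean, 6.08, and with 4.24 one of the lower Slc39a5 values of its group.

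Slc39a6, which encodes ZIP6, went the other way. Its log2 intensity was 7.45, 7.53 and 7.36 in weaned and 7.26, 7.21, 7.22 and 7.23 in suckling mice. The 4 suckling arrays lay within a narrow band below all weaned arrays, and the difference was 0.22 (SE 0.10, 95% interval -0.01 to 0.44). Its partner Slc39a10 (ZIP10), with which it forms a heteromer, overlapped fully between groups and differed by -0.05 (SE 0.20).

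Slc39a7 encodes ZIP7, which releases zinc from the endoplasmic reticulum and Golgi. It measured 8.57, 8.51 and 8.42 in weaned and 8.54, 8.54, 8.69 and 8.52 log2 units in suckling mice, a difference of -0.08 (SE 0.11, 95% interval -0.31 to 0.16). The groups overlapped. Of all 14 measured ZIP genes, 10 had a lower mean in weaned mice and their median difference was -0.069. Besides those named, Slc39a9 and Slc39a13, ZIPs of the secretory pathway, differed by -0.16 and -0.13, Slc39a1 by 0.17, Slc39a2 by 0.07, Slc39a11 by 0.04 and Slc39a3 by -0.03. Slc39a1 has a further, dimmer probe set that differed by -0.07. Slc39a4, the zinc importer of the gut, and Slc39a12 had group means of 2.85 to 3.09 log2 units, at background.

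Among the ZnT genes, the pair that supplies the early secretory pathway split. ZnT5 (Slc30a5) and ZnT6 (Slc30a6) form a heteromer that loads zinc into the Golgi for enzymes that need it. Slc30a5 measured 7.33, 7.13 and 6.96 log2 units in weaned and 7.49, 7.49, 7.57 and 7.48 in suckling mice. Every weaned array was below the tight suckling group, by a difference of -0.37 (SE 0.12, 95% interval -0.63 to -0.10, adjusted p = 0.552, limma).

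Slc30a6 measured 6.10, 6.14 and 6.09 log2 units in weaned and 5.53, 6.04, 5.92 and 5.69 in suckling mice. Here every weaned array was above every suckling array, with suckling replicate 9 close behind, and the difference was 0.31 (SE 0.14). The unadjusted p was 0.0494 by limma and passed 0.05 in 3 of 18 alternatives, whereas that of Slc30a5 did so in 18 and that of Slc39a8 in 18.

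Slc30a7 encodes ZnT7, which serves the same compartment as a homomer. Its log2 intensity was 7.75, 7.16 and 7.59 in weaned and 7.48, 7.87, 8.03 and 7.85 in suckling mice. The groups overlapped through weaned replicate 4 and suckling replicate 2, and the difference was -0.31 (SE 0.18).

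The granule transporter ZnT8, which loads zinc for insulin storage, showed no difference beyond the spread between arrays. Slc30a8 measured 11.19, 10.89 and 10.76 log2 units in weaned and 10.92, 11.02, 11.04 and 11.07 in suckling mice. The weaned arrays lay on both sides of the suckling group. The difference was -0.06 (SE 0.13, 95% interval -0.35 to 0.22), and without weaned replicate 12 it was 0.03.

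Slc30a1 encodes ZnT1, which pumps zinc out of the cell and is a known target of MTF-1. It measured 6.18, 6.02 and 5.87 log2 units in weaned and 5.86, 5.79, 5.72 and 5.75 in suckling mice. All weaned arrays were above all suckling arrays, though weaned replicate 12 and suckling replicate 2 were almost equal, and the difference was 0.24 (SE 0.11). The remaining ZnT genes overlapped between groups. Slc30a9 differed by 0.11, Slc30a4 by 0.01, Slc30a3, the transporter of synaptic vesicles, by -0.10, and the manganese exporter gene Slc30a10 by -0.13, while Slc30a2 was near background at 3.09 and 3.16. Of 10 ZnT genes 6 had a lower mean in weaned mice.

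**Figure D4:**
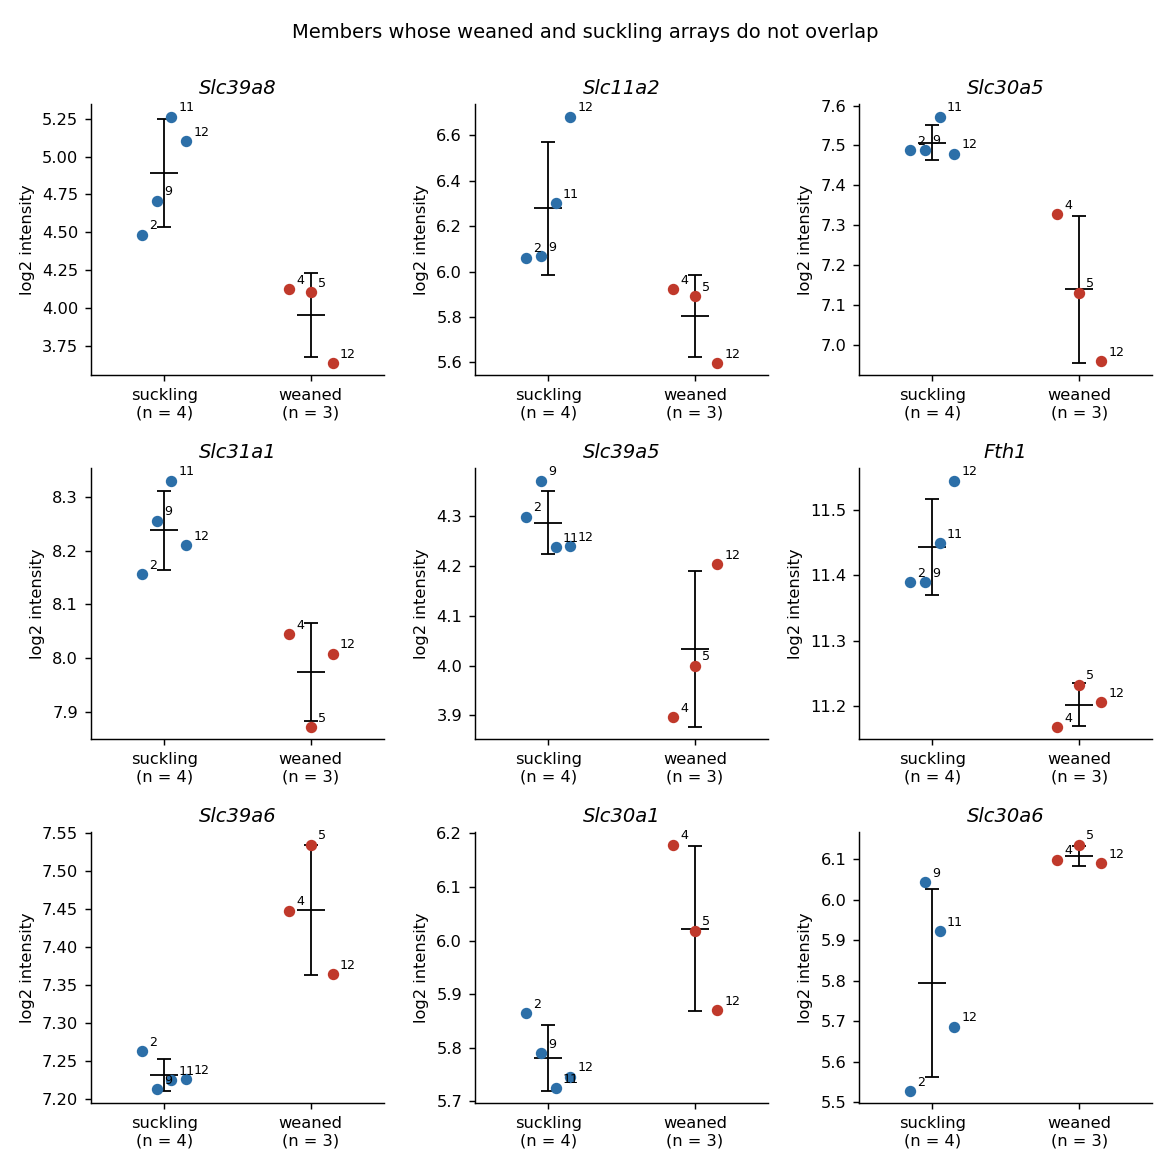
Log2 intensity on each array of the 9 members whose groups do not overlap; points are arrays labelled with their replicate number, and horizontal marks and bars are mean and SD of 4 suckling (blue) and 3 weaned (red) arrays. The vertical axes differ between genes and do not start at 0. Slc39a8 shows the widest gap, 4.13 against 4.49 between its nearest arrays.

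Metallothionein genes carry metal response elements, the sites that MTF-1 binds, and Mt1 and Mt2 are the members in which these sites are best known. The core was searched as TGCACNC and TGCGCNC on both strands in the 250 bases before each RefSeq start (GRCm38.p6). It was present before 21.4% of 32851 starts. The promoter table held 34 of the 41 members with 41 starts, of which 17, or 41.5%, had it. These shares are descriptions, and members of a family were not treated as independent. The sequences of Mt1 and Mt2, which lie side by side on chromosome 8, are shown because among suckling mice both genes were highest on replicate 11 and low on replicates 9 and 12. Capitals mark the matches, GTGTGCA being a match on the opposite strand.
Mt1, chr8:94178839-94179088, plus strand: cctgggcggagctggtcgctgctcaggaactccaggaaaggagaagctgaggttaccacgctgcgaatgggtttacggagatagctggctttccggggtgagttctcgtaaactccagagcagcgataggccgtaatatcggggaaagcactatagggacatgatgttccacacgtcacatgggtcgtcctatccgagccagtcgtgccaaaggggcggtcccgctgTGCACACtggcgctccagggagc
Mt2, chr8:94172368-94172617, plus strand: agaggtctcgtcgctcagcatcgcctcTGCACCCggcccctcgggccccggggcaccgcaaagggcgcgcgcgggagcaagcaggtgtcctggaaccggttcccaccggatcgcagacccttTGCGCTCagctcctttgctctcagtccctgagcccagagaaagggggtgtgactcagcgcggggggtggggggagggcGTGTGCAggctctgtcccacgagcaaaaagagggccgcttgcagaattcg

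Mt2 held 3 matches in this window, and 1.26% of all starts have 3 or more. Mt1 held 1 before its listed start. Sites outside the searched windows were not counted, and whether the best-known sites of Mt1 lie inside its window was not tested. The counts therefore do not show that Mt1 has fewer such sites than Mt2. Of the 9 members whose groups did not overlap, 7 were in the promoter table, Slc11a2 and Slc39a6 not being searched. Of these 7, 4 held a single match, each on the opposite strand. Counted by gene, 47.1% of the members searched and 23.8% of all genes had a match before at least 1 listed start. The 4 matches are shown for comparison as windows of 31 bases on the strand of the gene, with the match in capitals.
Slc39a8, chr3:135825626-135825656, plus strand: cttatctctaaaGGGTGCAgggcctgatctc
Slc30a5, chr13:100833457-100833487, minus strand: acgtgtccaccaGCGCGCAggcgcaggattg
Slc30a1, chr1:191906726-191906756, plus strand: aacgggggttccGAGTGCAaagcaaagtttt
Slc39a5, chr10:128401335-128401365, minus strand: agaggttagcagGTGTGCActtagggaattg
The Slc39a8 match lies 13 to 19 bases before the second of the listed starts and that of Slc30a1 37 to 43 bases before its start. A match in letters does not show that a factor binds there.

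The metallothioneins varied more from mouse to mouse than with weaning. Mt1 measured 9.77, 9.93 and 9.27 log2 units in weaned and 9.58, 9.16, 9.82 and 8.97 in suckling mice, a difference of 0.27 (SE 0.23). Mt2 measured 9.54, 9.64 and 9.27 in weaned and 9.52, 8.68, 10.32 and 8.90 in suckling mice, a difference of 0.13 (SE 0.34, 95% interval -0.63 to 0.89). Both genes were high on suckling replicate 11 and low on suckling replicates 9 and 12, and the weaned values lay inside the suckling range for Mt2. Without suckling replicates 2 and 9 the Mt2 difference was -0.13.

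Slc30a1, which shares the regulator, did not follow the metallothioneins among suckling mice, where its lowest value, 5.72, was that of replicate 11. The regulator gene Mtf1 measured 6.77, 6.62 and 6.61 in weaned and 6.76, 6.64, 6.92 and 6.93 log2 units in suckling mice, a difference of -0.14 (SE 0.12). Those groups overlapped. Mt3, a metallothionein best known from brain, differed by -0.23 (SE 0.15).

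**Figure D5:**
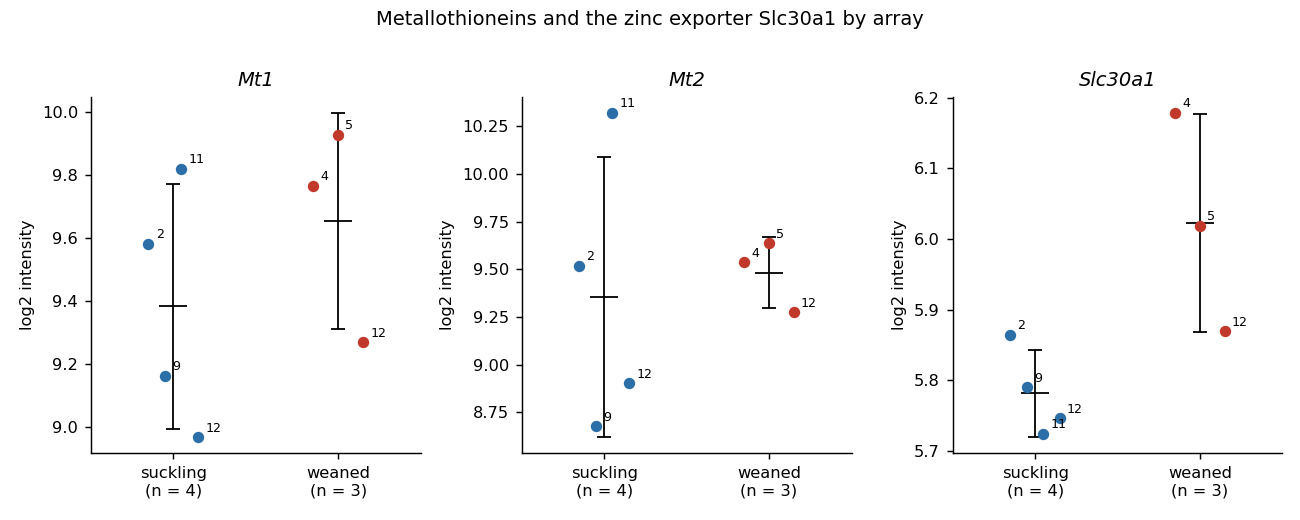
Log2 intensity of Mt1, Mt2 and Slc30a1 on each array, labelled with its replicate number; horizontal marks and bars are mean and SD of 4 suckling (blue) and 3 weaned (red) arrays, and the vertical axes differ and do not start at 0. Suckling arrays spread from 8.68 to 10.32 for Mt2, and Slc30a1 stays between 5.72 and 5.86 on the same arrays.

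Copper enters cells through CTR1, the product of Slc31a1, is carried by the chaperone ATOX1 and is pumped into the secretory pathway by ATP7A or ATP7B. In beta cells this supplies copper enzymes such as the peptide-amidating enzyme PAM. Slc31a1 measured 8.04, 7.87 and 8.01 log2 units in weaned and 8.16, 8.26, 8.33 and 8.21 in suckling mice. Each weaned array was below each suckling array, a difference of -0.26 (SE 0.11, 95% interval -0.50 to -0.03, adjusted p = 0.634, limma). The unadjusted p of Slc31a1 was under 0.05 in 11 of 18 alternatives, and in 3 of the 7 fits with 1 array left out.

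The steps after uptake did not separate the groups. Atox1 measured 9.56, 9.34 and 9.46 in weaned and 9.00, 9.32, 9.50 and 9.18 log2 units in suckling mice, a difference of 0.21 (SE 0.14). Atp7a measured 7.86, 7.72 and 7.47 in weaned and 7.66, 7.82, 7.73 and 7.74 in suckling mice, a difference of -0.06 (SE 0.12). The weaned values of Atp7a spanned the suckling ones. Atp7b, known for copper excretion in liver, differed by -0.25 with a weaned mean of 3.05 at background, and Slc31a2, a relative of CTR1, differed by 0.13.

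Among iron importers, Slc11a2 differed most. It encodes DMT1, which carries ferrous iron across the plasma and endosomal membranes. Its log2 intensity was 5.92, 5.89 and 5.60 in weaned and 6.06, 6.07, 6.30 and 6.68 in suckling mice. Every weaned array was below every suckling array, and suckling replicate 12 was well above its group. The difference was -0.47 (SE 0.17, 95% interval -0.86 to -0.09, adjusted p = 0.606, limma). It was -0.34 without suckling replicate 12 and -0.69 without suckling replicates 2 and 9. The unadjusted p stayed under 0.05 in 17 of 18 alternatives, the exception being the fit without weaned replicate 12 (-0.37).

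The transferrin route, by contrast, was nearly equal between groups. Tfrc, the transferrin receptor gene, measured 7.11, 6.76 and 6.87 in weaned and 7.14, 6.62, 7.01 and 6.97 log2 units in suckling mice, a difference of -0.02 (SE 0.15, 95% interval -0.36 to 0.31). Trf, which encodes transferrin itself, a plasma protein made mainly in liver, differed by -0.02 (SE 0.12). Markers of red cell precursors, which take up much iron, were near background, with means of 6 measured genes of 3.02 to 3.40 log2 units on the weaned and 3.25 to 3.28 on the suckling arrays. The interval for Tfrc does not reach the difference measured for Slc11a2, but the difference between these genes was not tested.

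Ferritin is a shell built of heavy chains, which oxidise iron, and light chains. Fth1, the heavy chain gene, measured 11.17, 11.23 and 11.21 in weaned and 11.39, 11.39, 11.45 and 11.54 log2 units in suckling mice. The arrays of each group were close together and the groups did not overlap, with a difference of -0.24 (SE 0.10, 95% interval -0.47 to -0.01, adjusted p = 0.649, limma), which is 1.18-fold. Its unadjusted p passed 0.05 in 7 of 18 alternatives.

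The light chain did not share this pattern. Ftl1 measured 10.29, 10.60 and 10.71 in weaned and 10.40, 10.42, 10.63 and 10.40 log2 units in suckling mice, a difference of 0.07 (SE 0.13). The weaned arrays lay on both sides of the suckling ones. Both ferritin genes have many processed copies in the genome that their probes may share, and 4 further Ftl1 probe sets, which the annotation also gives to other genes, were not used, so their values are uncertain.

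Slc40a1 encodes ferroportin, the only known iron exporter of animal cells. It measured 8.37, 7.77 and 8.22 in weaned and 7.81, 8.03, 8.10 and 7.99 log2 units in suckling mice, a difference of 0.14 (SE 0.16). Weaned replicate 5 was the lowest of all arrays and weaned replicate 4 the highest, and without replicate 5 the difference was 0.31.

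The iron regulatory proteins IRP1 and IRP2, encoded by Aco1 and Ireb2, bind iron-responsive elements in the mRNAs of ferritin, ferroportin, DMT1 and the transferrin receptor. Aco1 measured 6.71, 6.60 and 6.64 in weaned and 6.72, 6.56, 6.65 and 6.65 log2 units in suckling mice. Ireb2 measured 7.39, 7.12 and 7.06 in weaned and 7.24, 7.08, 7.25 and 7.27. Both genes overlapped between groups. The differences were 0.0032 (SE 0.10, 95% interval -0.23 to 0.23) for Aco1 and -0.02 (SE 0.12, 95% interval -0.29 to 0.25) for Ireb2.

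A separate list held 88 other genes of zinc, copper, iron, heme and iron-sulfur handling, of which 80 were measured. By limma 0 passed an adjusted p of 0.05, and 6 had an unadjusted p under 0.05, or 7.50%, next to 7.58% over all genes. They divided into 3 higher and 3 lower, and the median log2 difference of the list was 0.028. By unadjusted p the list was thus at the background share, while in 10 partners, or 12.5%, the groups did not overlap, where 7.32% of all genes do so.

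Among these partners, the iron-sulfur cluster genes had 12 of 17 members with a higher mean in weaned mice. Hscb, a co-chaperone of cluster transfer, measured 4.66, 4.80 and 5.06 in weaned and 4.01, 4.09, 4.62 and 4.64 log2 units in suckling mice, a difference of 0.50 (SE 0.19). Nfs1, the cysteine desulfurase that provides the sulfur, differed by -0.27 (SE 0.12), in the opposite direction. The other partners with an unadjusted p under 0.05 were Cpox, an enzyme of heme synthesis (-0.35, SE 0.11), the heme transporter gene Slc48a1 (0.32, SE 0.12), and Tmem163, which encodes a zinc efflux protein (0.33, SE 0.13). Lox, lysyl oxidase, is a copper enzyme of the matrix and had both means, 2.35 and 2.66, at background, so its difference is not read here.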

How the data were processed

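Affymetrix arrays of 3 weaned and 4 suckling mice were analysed, each from RNA amplified with a small-sample kit, per the labels' protocols. The authors deposited 1 linear intensity per probe set and array, using Partek 6.6 and RMA per the submitters' processing notes. No genome build was given in the sources, and intensities ran from 1.45 to 12755. RMA shrinks differences of dim probe sets, and levels of different probe sets were not compared. Here log2 was taken. Of 35556 probe sets 21789 name 1 gene, 1621 several and 12146 none; the gene IDs of 21698 single-gene probe sets were found in RefSeq (GRCm38.p6), which gave their current symbols, and the brightest probe set stood for each of 19938 genes, with no filter. Of the 41 members 40 have 1 probe set. All 7 value columns were used.

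Groups were compared with limma 3.58.1 (R 4.3.3, lmFit and eBayes, two-sided, no covariate), which shares variance information across genes, and p-values were adjusted over all genes (Benjamini-Hochberg, threshold 0.05). The script was tested on simulated data with known changes. Separate mice are the replicates, and their number limits the precision, with a median SE of 0.13 for members. As background served 1.80 to 3.15 log2 units, the range of Xist and Y-linked genes on arrays without their signal; both means of 2 members and 1 mean of 2 more lay at or below its upper end. Members, lists and tests were chosen with earlier results of these data known. Named genes were those with an unadjusted p under 0.05 or non-overlapping groups, a fixed set of 19 members, and partners with an unadjusted p under 0.05. The alternatives were another variance prior, 2 scalings, 2 filters, probe set means, array weights, 3 covariates, and arrays left out.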

Additional observations from a re-analysis of the deposited data

Results flagged for a closer look

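In 6 of the 41 members 1 suckling array lay far from the other suckling arrays by Dixon's criterion for 4 samples, which chance exceeds in about 1 in 20 groups. Suckling replicate 11 was high for Slc30a5, at 7.57 log2 units where the others ran from 7.48 to 7.49, for Ftl1, at 10.63 against 10.40 to 10.42, and for Slc39a7, at 8.69 against 8.52 to 8.54. Suckling replicate 2, an array with much acinar signal, was high for Slc39a14, at 5.13 against 4.85 to 4.86. Replicate 9, with a like acinar mean (7.10, beside 7.23 on replicate 2), was not high, at 4.85. Suckling replicate 9 was low for Ireb2, at 7.08 against 7.24 to 7.27, and suckling replicate 12 was low for Atp7b, at 3.05 against 3.37 to 3.42. Without suckling replicate 11 the Slc30a5 difference was -0.35, and the cause of these single values was not tested.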

How the results depend on the processing

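No paired analysis was possible because the groups share only 1 replicate number. By limma, members past an adjusted p of 0.05 numbered 0 with all alternatives other than the acinar covariate, with which there was 1 (Slc39a8). Members with an unadjusted p under 0.05 by limma numbered 6. Of these 6, 1 also had a 1.5-fold difference, next to 217 of all 19938 genes. There were 3 with the acinar covariate and 3 with the leukocyte covariate, 7.32% of the members where 5.82% and 6.63% of all genes passed. With the Xist covariate there were 4, or 9.76%, where 7.38% of all genes passed. Array weights gave 8, or 19.5%, where 8.01% of all genes passed. The 2 filters on dim genes gave 4 each, or 10% and 12.5%, where 8.27% and 9.11% of all genes passed. With 1 array left out there were 4 to 6, or 9.76% to 14.6%, where 5.87% to 7.78% of all genes passed. Without suckling replicates 2 and 9 there were 4, or 9.76%, where 5.46% of all genes passed. Members whose groups do not overlap are not counted for the alternatives, because the share over all genes is not given for them. With either scaling Slc30a1 and Slc30a6 overlapped. With fewer arrays any gene separates more easily. Of 80 partner genes 6 had an unadjusted p under 0.05 by limma, where 7.58% of all genes did, and 0 of them differed by 1.5-fold. With the acinar covariate there were 3, where 5.82% of all genes passed. With 1 array left out there were 3 to 8. The 3 were without suckling replicate 9 and the 8 without suckling replicate 11, where 5.87% and 7.45% of all genes passed. The median difference of the members ran from -0.096 to -0.024 with 1 array left out. The sign changed under some alternative in 19 members, each with a difference of at most 0.13 in size, and none of the 9 non-overlapping members was among them. Filters on dim genes removed 1 and 9 members. The cause of these shifts was not tested.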
